A study of Caenorhabditis elegans with 2 samples.

Results

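Regions of LSY-27 ChIP signal at small nucleolar RNA (snoRNA) genes are described here. The strongest of them had a median summit just upstream of the snoRNA gene. Most of those genes had, in the 150 bp upstream, letters that also occur in transfer RNA (tRNA) genes or upstream of small nuclear RNA (snRNA) genes. The letters were chosen after the upstream sequences of the strongest regions had been seen, so this share describes that choice. The members were taken from the list of regions called on the pooled replicates, which keeps weak regions and background and is called the pooled relaxed list below. A region on a nuclear chromosome was a member when its summit lay within 500 bp of an annotated snoRNA gene and no transfer RNA gene lay within 500 bp of the summit. The rule gave 281 members of 30000 regions, of which 29975 were nuclear. The members lay nearest to 225 of the 346 annotated snoRNA genes.

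The data came from chromatin immunoprecipitation with sequencing (ChIP-seq) of LSY-27, a zinc finger protein of Caenorhabditis elegans known for its part in making the left and right ASE taste neurons differ. Chromatin was taken from whole young adult hermaphrodites of strain OP401, a stable transgenic line in which LSY-27 carries GFP and FLAG at its C terminus. The group held 2 biological replicates, numbered 2 and 3 in the labels, with no untreated, wild-type or second group. The descriptions name an antibody against GFP, while the antibody label names lsy-27. The strain is a single transgenic line, tissues were not separated, and control reads were not analysed here. The sources used here name no promoter for the fusion. Signal values are the authors' own score for each region. The sources used here give no scale for them. They are therefore compared only within a list, also as percentiles of that list. The depth of the libraries is unknown, and no interval that needs read counts can be given.

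SnoRNAs guide the chemical modification of ribosomal RNA and other RNAs in the nucleolus. Box C/D snoRNAs direct methylation of the ribose and box H/ACA snoRNAs direct the conversion of uridine to pseudouridine. Many animal snoRNAs lie in introns and are cut out of the spliced host transcript, while others are transcribed from promoters of their own. A snoRNA on the strand opposite to its host gene cannot be released from the host's transcript. RNA polymerase III transcribes tRNA genes from the A box and the B box, promoter elements inside the gene, and in budding yeast the snoRNA gene SNR52 has such boxes in its leader. Genes of snRNAs in animals use a proximal sequence element upstream of the gene that the SNAPc complex binds.

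Many of the strongest members had recurring letters upstream of the snoRNA gene, of 2 kinds. The sequences shown run from 120 bp upstream of the annotated 5′ end to 10 bp inside the gene, on the strand of the gene, in build ce11 (WBcel235). They belong to the 3 intronic and the 3 intergenic members with the highest signal on chromosomes II, III, IV, V and X, followed by the next 3 members with the third motif. Capitals mark matches to TGGCNNAG (A box-like), to GTTCNANNC (B box-like) or to CGNAACNCG, called the third motif because no factor is assigned to it here. These letters were chosen after the upstream sequences of the strongest members had been seen. The intronic genes are T03F7.8 (chrV:11314138-11314267, plus strand), Y55F3BR.9 (chrIV:867124-867253, minus strand) and Y43F8C.22 (chrV:19643178-19643307, minus strand).
T03F7.8: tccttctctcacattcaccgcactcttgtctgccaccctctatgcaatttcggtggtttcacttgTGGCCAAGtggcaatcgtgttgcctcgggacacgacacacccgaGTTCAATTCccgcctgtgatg
Y55F3BR.9: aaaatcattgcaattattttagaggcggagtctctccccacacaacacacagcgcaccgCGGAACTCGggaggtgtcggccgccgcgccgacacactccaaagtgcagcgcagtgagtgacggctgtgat
Y43F8C.22: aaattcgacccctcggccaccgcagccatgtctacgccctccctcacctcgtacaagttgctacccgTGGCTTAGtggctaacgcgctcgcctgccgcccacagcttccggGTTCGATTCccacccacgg

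The intergenic genes are W03C9.9 (chrII:11960778-11960907, plus strand), F32E10.10 (chrIV:7574002-7574131, plus strand) and T06C12.16 (chrV:15873917-15874046, minus strand).
W03C9.9: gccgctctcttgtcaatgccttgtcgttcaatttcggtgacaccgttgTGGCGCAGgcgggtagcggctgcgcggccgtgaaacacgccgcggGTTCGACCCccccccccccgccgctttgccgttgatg
F32E10.10: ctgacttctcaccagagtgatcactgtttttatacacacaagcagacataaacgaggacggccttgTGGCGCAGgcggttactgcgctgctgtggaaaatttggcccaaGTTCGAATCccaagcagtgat
T06C12.16: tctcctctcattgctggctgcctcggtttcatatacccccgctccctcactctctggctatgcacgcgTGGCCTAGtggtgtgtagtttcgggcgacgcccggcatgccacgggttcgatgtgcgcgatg

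The next 3 genes with the third motif, all intergenic, are C18A3.12 (chrII:5701542-5701671, plus strand), Y53F4B.47 (chrII:15025884-15026013, minus strand) and T08B6.64 (chrIV:4880841-4880970, minus strand).
C18A3.12: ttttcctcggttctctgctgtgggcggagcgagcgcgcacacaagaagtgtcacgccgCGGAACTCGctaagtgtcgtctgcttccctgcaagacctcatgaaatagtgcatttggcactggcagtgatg
Y53F4B.47: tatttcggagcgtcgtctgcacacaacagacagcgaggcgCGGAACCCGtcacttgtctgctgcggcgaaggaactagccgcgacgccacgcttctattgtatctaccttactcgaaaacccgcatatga
T08B6.64: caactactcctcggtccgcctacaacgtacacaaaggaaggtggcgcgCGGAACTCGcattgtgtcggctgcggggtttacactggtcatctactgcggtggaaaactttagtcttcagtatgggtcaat

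Regions at intronic and at intergenic snoRNA genes had similar signal. By the class of the nearest snoRNA gene, 127 members were at intronic genes, which lie in the span of a protein-coding gene and touch none of its exons. Another 113 members were at intergenic genes, which touch no protein-coding gene, and 41 were at exonic genes, which touch an exon or cross the edge of a protein-coding gene. The median signal was 9.32 (quartiles 4.56 and 19.9) for intronic, 8.48 (5.02 and 15.8) for intergenic and 5.33 (4.18 and 10.2) for exonic members, against 4.78 for all nuclear regions. As percentiles of the pooled relaxed list these medians were 89.8, 86.8 and 59.3. The order of the intronic and intergenic classes turned over in each replicate's own list. The intronic median was 82.3 and the intergenic median 89.9 in the list of replicate 2, and they were 84.3 and 87.6 in the list of replicate 3. A higher signal at intronic genes was therefore not a property of the replicates taken singly. No test over regions was made, since regions of a list are not replicates of a condition.

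The members were often among the regions that the authors kept as reproducible. The thresholded list, made by the irreproducible discovery rate method from both replicates, held 54 of the 281 members (19.2%, exact Clopper-Pearson 95% interval 14.8 to 24.3), while 1.06% of all nuclear regions of the pooled relaxed list were thresholded. All such intervals cover counting error only and treat regions as independent. By class, 28 of 127 intronic members (22.0%, interval 15.2 to 30.3), 21 of 113 intergenic members (18.6%, 11.9 to 27.0) and 5 of 41 exonic members (12.2%, 4.08 to 26.2) were thresholded. The intervals of the intronic and intergenic classes overlapped over most of their width. Within introns, 8 of 22 members at genes on the strand opposite to the host (36.4%, 17.2 to 59.3) and 20 of 105 at genes on the host's strand (19.0%, 12.0 to 27.9) were thresholded. These intervals overlapped as well. Thresholded intronic members had a median signal of 30.4 and thresholded intergenic members one of 34.5.

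**Figure D1:**
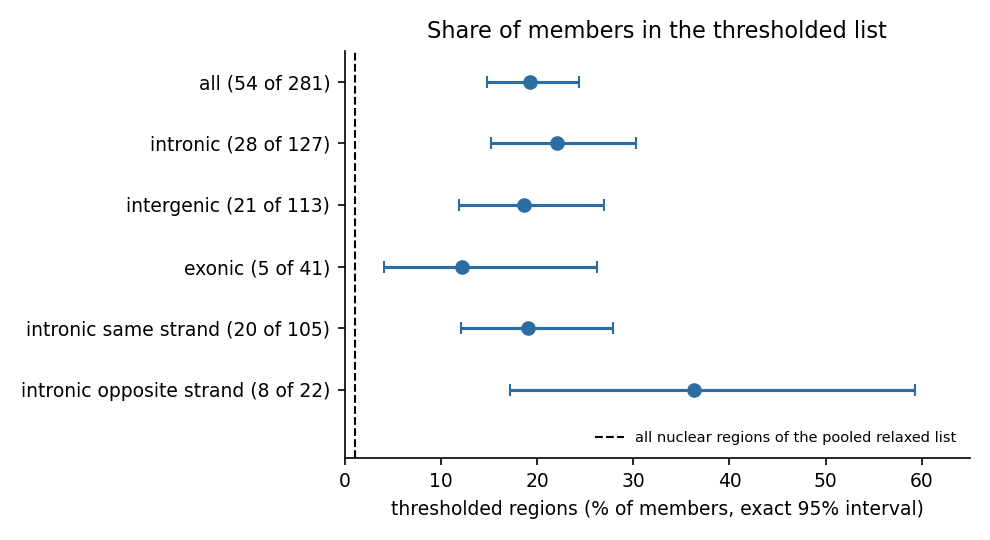
Share of members found in the thresholded list (x axis, % of members) for all members, by class of the nearest snoRNA gene, and for intronic genes by strand relative to the host gene. Points are shares, bars are exact 95% intervals, and the dashed line is the 1.06% of all nuclear regions; every point lies to its right, and the bars of the intronic (22.0%) and intergenic (18.6%) classes overlap.

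Summits of the strong members gathered just upstream of the snoRNA gene. Positions are counted from the annotated 5′ end in the direction of transcription, and negative positions are upstream. The median summit was at −30.5 bp for the 54 thresholded members (quartiles −49 and 5.5), and 45 of them (83.3%) lay in the window between −100 and +50 bp. Members ranked from 343 to 2000 had a median of −24.5 bp, with 31 of 54 (57.4%) there. Further down the list smaller shares of the summits lay there. Of the members ranked from 2001 to 10000, 9 of 67 (13.4%) lay in the window, and of those ranked from 10001 to 20000, 7 of 55 (12.7%). Of the members ranked from 20001 to 30000, 9 of 51 (17.6%) lay there, among them 8 of the 28 intronic members (28.6%). The rule admits summits on either side of a gene alike, so the gathering of the strong summits near the 5′ end was not set by it. The window from −100 to +50 bp was chosen after seeing the data, so the shares in it are a description.

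**Figure D2:**
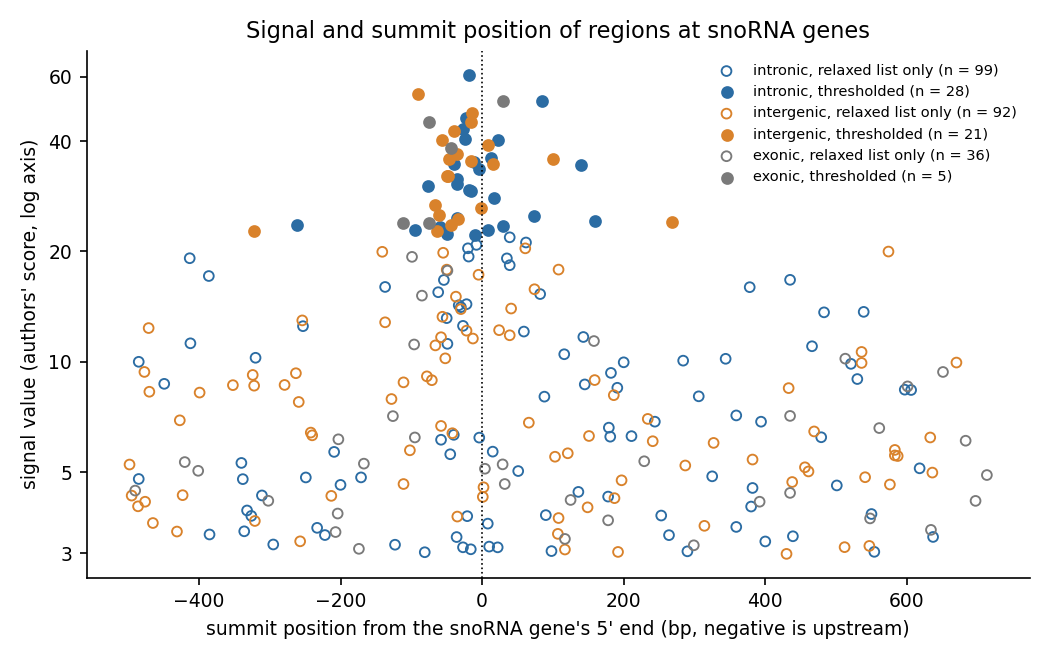
Signal value of each member (y axis, the authors' score, log axis) against the position of its summit from the 5′ end of the nearest snoRNA gene (x axis, bp, negative is upstream). Filled points are thresholded members and open points are in the relaxed list only, coloured by class; 45 of the 54 filled points lie between −100 and +50 bp, while weak members spread over the whole range.

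Over all members the median summit was further downstream at intronic than at intergenic genes, but the order turned over among members ranked beyond 10000. The median was +8 bp for intronic genes (quartiles −52 and 195.5) and −22 bp for intergenic genes (−111 and 187), a difference of 30 bp. The difference had the same sign in each replicate's list, with 34 bp in replicate 2 and 26 bp in replicate 3. Among thresholded members the medians were −19 bp for intronic and −39 bp for intergenic genes. Their matching summits in the replicates' own lists lay closer, at −3 and −18 bp in replicate 2 and at −24 and −27 bp in replicate 3. Members ranked from 343 to 2000 had medians of −19.5 bp (intronic) and −30 bp (intergenic). The classes lay furthest apart in the stated order at ranks from 2001 to 10000, with 195.5 and −64.5 bp. There 6 of 26 intronic and 19 of 32 intergenic summits lay upstream. Members ranked from 10001 to 20000 had medians of −45 bp (intronic) and 192 bp (intergenic), and those ranked from 20001 to 30000 had 9 and 108 bp. Over all members both distributions were far wider than their difference of 30 bp. The 8 thresholded intronic members opposite to their host had a median of +6.5 bp against −31 bp for the 20 on the host's strand. The summit position itself varied between the replicates. For the 54 thresholded members the summits of the matching regions in the replicates' lists lay a median of 40 bp apart (quartiles 23.25 and 69, at most 150). In the list of replicate 2 the matching thresholded summits had a median of −19 bp, and in that of replicate 3 one of −27 bp.

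The 10 strongest intronic members lay in hosts of varied function. The strongest spanned chrV:11314081-11314396 at T03F7.8, on the strand opposite to its host cutl-18, a cuticlin-like gene. Its signal was 60.7 (rank 23 of 30000), with 18.1 in the list of replicate 2 and 39.2 in that of replicate 3, and its summit was at −19 bp. The region at Y55F3BR.9 (chrIV:866891-867206), opposite to Y55F3BR.2, had a signal of 51.6 and values of 15.1 and 39.6 in replicates 2 and 3, with the summit inside the snoRNA gene at +84 bp. The region at Y43F8C.22 (chrV:19643052-19643367), on the strand of Y43F8C.7, had 46.3, with 15.7 and 30.2 in the replicates and the summit at −23 bp. All 3 stood above the 99th percentile of each replicate's list.

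The other intronic members of the 10 had signals from 34.6 to 43.2. C10C6.8 lies in catp-8, a P-type ATPase gene, and had a signal of 43.2 with the summit at −27 bp. ZK484.9, opposite to the ABC transporter gene haf-9, had 40.5, and Y38F2AR.14 in Y38F2AR.12 had 40.4 with its summit inside the gene at +23 bp. F55A11.10 in F55A11.6 and M106.6 in mix-1, which encodes an SMC subunit of condensin, both had 36.0. D1046.6 in cfim-2, a cleavage factor subunit gene, had 35.0, and T08B2.13 in fars-1, a subunit of phenylalanyl-tRNA synthetase, had 34.6. D1046.6 and T08B2.13 also had a tRNA pseudogene at the summit, an annotation that the rule on tRNA genes does not cover. Of all 281 members 5 had a tRNA pseudogene within 500 bp, 3 of them thresholded. Their part in the signal was not tested, and without these members 20.3% of intronic members were thresholded.

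The 10 strongest intergenic members had signals from 35.4 to 53.9. W03C9.9 (region chrII:11960649-11960964) had 53.9, with 11.3 in replicate 2 and 40.8 in replicate 3. Its pooled summit was at −91 bp, and the replicates placed it at −12 and −68 bp. F32E10.10 (chrIV:7573950-7574265) had 47.7, with 12.2 and 33.8 in the replicates and the summit at −14 bp. T06C12.16 (chrV:15873783-15874098) had 45.2, with 17.96 and 27.1 and the summit at −15 bp. C18A3.12 (chrII:5701465-5701780) had 42.6, with 17.3 and 29.2, and its pooled summit was at −39 bp while the replicates gave +74 and −76 bp. The signals of F30H5.4, Y75B12B.12, T19B4.8 and Y53F4B.47 were 40.2, 39.0, 36.9 and 35.9. T08B6.64 had 35.7 with the summit at +100 bp, and Y23H5B.10 had 35.4 with the summit at −16 bp. Y23H5B.10 differed most between the replicates among these 10, at percentile 89.99 in replicate 2 and 99.8 in replicate 3.

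The 5 strongest exonic members were the 5 thresholded ones. C51F7.4 overlaps an exon of frm-7, a FERM domain gene, on the same strand, and its region (chrV:12303470-12303785) had a signal of 51.6, with 16.9 and 38.8 in replicates 2 and 3. T02E1.9, opposite to the spermatid activation gene spe-12, had 45.2, and T27A3.9, opposite to T27A3.8, had 38.3. F39B2.14 in tmem-107, a gene of the ciliary transition zone, had 24.0, and W01C9.6, opposite to the globin gene glb-27, had 23.9. The region of F39B2.14 also lay at the 5′ end of tmem-107, with its summit 112 bp upstream of the snoRNA gene. At the distance limit, the members at F09G2.14 (498 bp, signal 5.24) and K02F3.15 (496 bp, 9.95) lay just inside, and the regions at T26A8.6 (502 bp, 3.30) and T28B8.11 (505 bp, 3.89) just outside.

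Upstream motifs followed the strength of the regions. In the 150 bp upstream of the gene, on the gene's strand, 39 of the 54 genes with a thresholded member (72.2%, interval 58.4 to 83.5) had an A box-like, a B box-like match or the third motif. The share was 38 of 171 (22.2%, 16.2 to 29.2) for genes with relaxed members only and 11 of 121 (9.09%, 4.63 to 15.7) for snoRNA genes with no member. It was 743 of 19971 (3.72%, 3.46 to 3.99) upstream of protein-coding genes. The intervals of these 4 groups did not overlap. Because the letters were chosen on the strongest members, the first of these shares is a description of the choice and not independent evidence. Among thresholded genes, 21 of 28 intronic (75%) and 16 of 21 intergenic genes (76.2%) had a match, and 2 of 5 exonic genes had one. Genes with no member are those to which no member was assigned, and some of them still had a pooled relaxed summit within 500 bp. Such a summit was assigned to another snoRNA gene or lay near a tRNA gene.

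The box-like letters and the third motif seldom occurred together. Of the 54 genes with a thresholded member, 9 had both the A and the B box-like match, 7 had the A box-like match alone, 8 had the B box-like match alone and 15 had the third motif. These classes depend on the letters used. T06C12.16, classed with the A box-like match alone, has GGTTCGA downstream of that match in the sequence shown. These are letters of a tRNA B box that GTTCNANNC does not match there. No thresholded gene had the third motif together with an A or B box-like match, and of the 171 genes with relaxed members only, 1 did. Both kinds occurred in introns and between genes. Of the 28 thresholded intronic genes, 13 had an A or B box-like match and 8 had the third motif. Of the 21 thresholded intergenic genes, 9 had an A or B box-like match and 7 had the third motif. Another annotated non-coding gene or pseudogene lay in the upstream window of 5 of the 12 snoRNA genes with both boxes, 2 of them with a tRNA pseudogene. This held for 5 of 22 genes with the A box-like match alone, 3 of 22 with the B box-like match alone and 8 of 32 with the third motif, against 24 of 258 (9.30%) with none. The part of these neighbours in the motifs and the signal was not tested.

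At thresholded genes the A box-like match started at a median of −58.5 bp (quartiles −64.25 and −55.75, n = 16), the B box-like match at −14 bp (−17 and −12, n = 17) and the third motif at −62 bp (−73 and −61, n = 15). At genes with relaxed members only the medians were −60 bp (quartiles −89.5 and −56), −15.5 bp (−38.75 and −12) and −61 bp (−64 and −60.25), so the box-like matches were more spread there. At genes with no member the A box-like matches were fewer, 4 of 121, and lay elsewhere, with a median of −110.5 bp. In genes with no member the third motif was matched 3 times, between −64 and −61 bp, where the others were. In the reverse direction the letters were seldom found upstream of the 346 snoRNA genes, at 4.91% for the A box-like, 1.73% for the B box-like and 0.867% for the third motif.

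**Figure D3:**
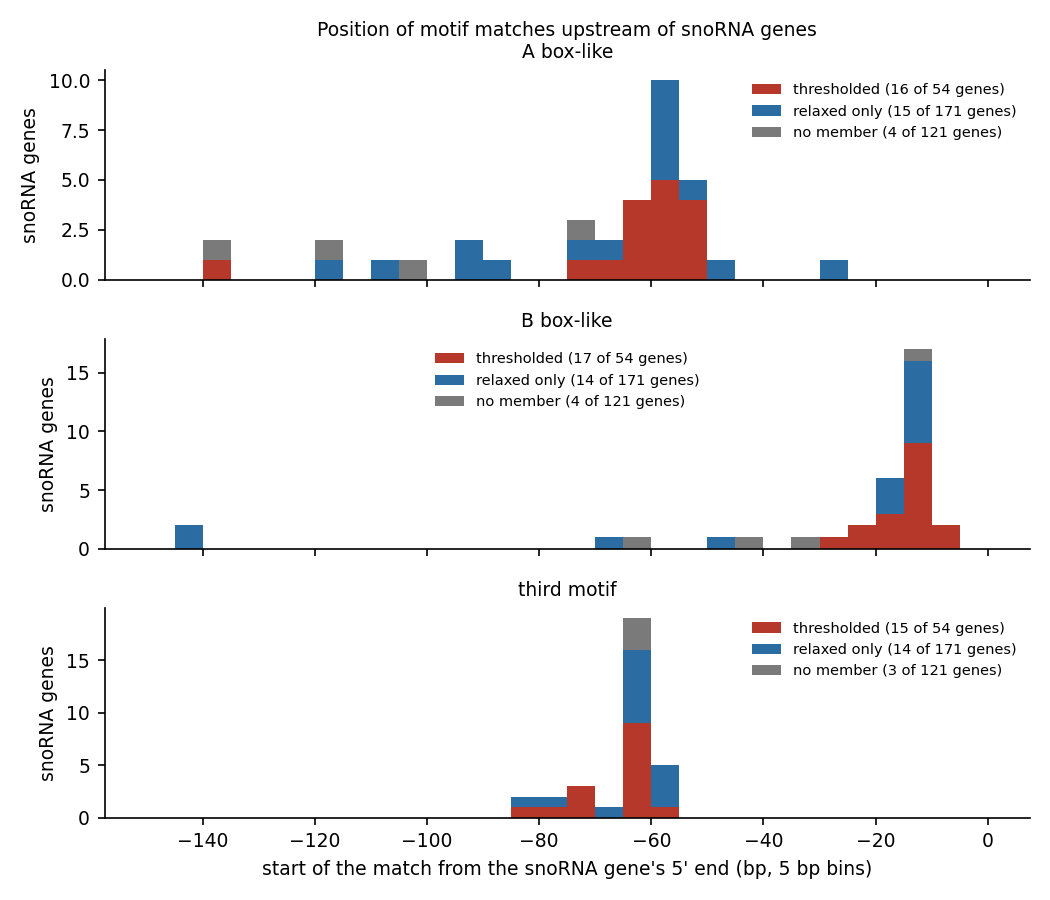
Number of snoRNA genes (y axis) by the start of the motif match nearest to the gene (x axis, bp from the 5′ end, 5 bp bins), for the A box-like motif, the B box-like motif and the third motif. Colours give genes with a thresholded member, with relaxed members only and with no member; the matches at thresholded genes gather at medians of −58.5, −14 and −62 bp.

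Genes of tRNAs and snRNAs were searched for the same letters. Inside the 612 nuclear tRNA genes the B box-like letters were found in 587 (95.9%, interval 94.0 to 97.3) and the A box-like letters in 108 (17.6%), so the letters used for the A box are narrower than the range of tRNA genes. The A to B distance was 44 bp at the median in the 9 thresholded snoRNA genes with both (quartiles 44 and 45, range 43 to 52). In the 97 tRNA genes with both it was 54 bp (quartiles 36 and 56, range 36 to 94), so the tRNA distances spanned that of the snoRNA genes. The third motif was found in none of the 612 tRNA genes, which allows a share of up to 0.601%. It was found upstream of 41 of 129 snRNA genes (31.8%, 23.9 to 40.6), at a median of −61 bp (quartiles −62 and −59), the same distance as at snoRNA genes. A box-like letters were found upstream of none of the 129 snRNA genes and the third motif upstream of 71 of 19971 protein-coding genes (0.356%). In 31 of the 32 snoRNA genes with the third motif, and in all 15 thresholded ones, the letters TGTC followed after a gap of 5 bases. A match describes the sequence and does not show that a factor binds there.

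**Figure D4:**
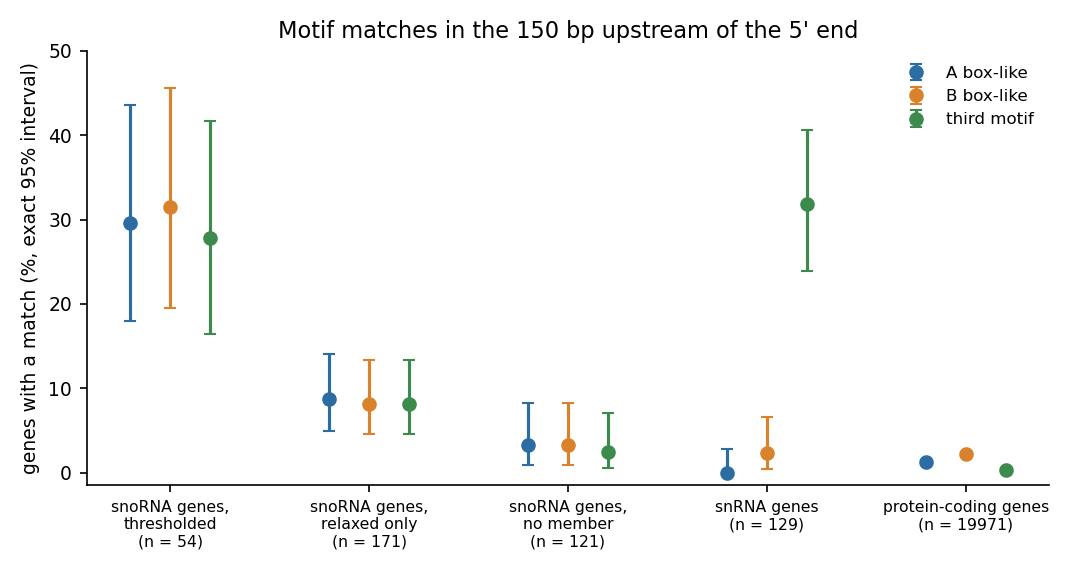
Share of genes with each motif in the 150 bp upstream of the 5′ end (y axis, %, exact 95% intervals as bars) for snoRNA genes by their members, for snRNA genes and for protein-coding genes (x axis). Each motif falls from about 30% at thresholded snoRNA genes (29.6, 31.5 and 27.8%) to 3.31, 3.31 and 2.48% at genes with no member, and the third motif alone is frequent at snRNA genes (31.8%). The letters were chosen on the strongest members.

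Signal and summit are given here by the kind of match. The letters were chosen on the strongest members, so a high signal at members with a match in part restates that choice. The 9 thresholded members with both box-like matches had signals from 29.5 to 60.7 with a median of 36.9, and those with the B box-like match alone had a median of 38.6 (n = 8). The 7 with the A box-like match alone had a median of 28.0 and the 15 with the third motif one of 25.003, with a range from 22.2 to 51.6. The ranges overlapped. Summits lay at a median of −23 bp with both boxes, −34 bp with the A box-like and −43.5 bp with the B box-like match alone, and at +8 bp with the third motif. With none of the motifs the median was −27 bp, and 12 of these 15 summits lay upstream, so an upstream summit was not particular to the box-like matches. For the third motif the summit lay a median of 69 bp downstream of the start of the match (quartiles 28 and 140), and for the A box-like match 33 bp downstream (17.5 and 42.25). Of the 9 thresholded members with summits outside the window from −100 to +50 bp, 5 had the third motif, at Y55F3BR.9, T08B6.64, Y37E3.20, F54F11.6 and W03B1.17. These 5 genes were chosen after their values were seen.

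The motifs were also counted around the summit without regard to the gene. The letters were chosen on these same members, so their shares at thresholded members restate that choice. Within 50 bp of the summit and on either strand, the A box-like letters were found in 17 of 54 thresholded members (31.5%, interval 19.5 to 45.6), against 3.35% of all nuclear regions and 9.09% of the 143 thresholded regions at neither a snoRNA nor a tRNA gene. For the B box-like letters the shares were 31.5%, 4.28% and 6.29%, and for the third motif 13.0%, 0.687% and 4.90%. The fixed letters of a tRNA B box, GGTTCGA, were found in 6 of 54 thresholded members (11.1%) against 31.7% of regions at tRNA genes and 1.43% of all nuclear regions. TATAAA (11.1% against 10.9% of all nuclear regions) and GAGAGA (7.41% against 7.90%) were near the level of all nuclear regions. The 5 6-mers with the largest gain in share over all nuclear regions each occurred in 8.19 to 9.61% of members. The largest gain was that of GAACCC, in 8.90% of members and 2.57% of all nuclear regions. The windows were rich in G and C. The median was 54.5% for thresholded members, 48.5% for thresholded regions at tRNA genes, 47.5% for the 143 others and 36.6% for all nuclear regions. The part of base composition in the motif shares was not tested.

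Genes without any of the 3 motifs made up 15 of the 54 with thresholded members. The strongest were C51F7.4 (51.6), C10C6.8 (43.2) and Y38F2AR.14 (40.4), named above. The summit at C51F7.4 also lay within 500 bp of C51F7.3, an intronic gene on the same strand that is counted as having no member. C51F7.3 had a B box-like match at −44 bp from its own 5′ end, so letters of this kind did lie near that summit. F54E7.10, in an intron of the ribosomal protein gene rps-12, had a signal of 23.6 with its summit at −262 bp. It was the sole thresholded gene of 28 intronic ones with a ribosomal protein host, a kind of host that 15 of 81 intronic genes with relaxed members only (18.5%) and 7 of 58 with no member (12.1%) had. The interval for the 1 of 28 ran from 0.0904 to 18.3% and overlapped the others.

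Box letters inside the genes separated the kinds in part. Thresholded genes had a median length of 79.5 bp (quartiles 71 and 131.5) against 131 bp for genes with relaxed members only and 135 bp for genes with no member. CTGA, the letters of box D, was found in the last 30 bases of 27 of 54 thresholded genes, 43 of 171 with relaxed members only (25.1%) and 21 of 121 with no member (17.4%). Among thresholded genes it was found in 12 of 15 with the third motif and in 2 of 15 with none of the motifs. ACA in the last 8 bases together with the H box letters ANANNA was found in 11 of 54 thresholded genes (20.4%), in none of the 15 with the third motif and in 5 of the 15 with none of the motifs. Only 15 of 346 genes had box C (TGATGA, in the first 30 bases) and box D letters together, and 245 fitted neither class by these letters, so most genes were not classed.

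Counted by gene, 239 of 346 snoRNA genes (69.1%, interval 63.9 to 73.9) had a pooled relaxed summit within 500 bp, while 26.7% of nuclear bases lay that close to one. The shares were 71.3% of 167 intronic, 67.7% of 127 intergenic and 65.4% of 52 exonic genes. For comparison, 88.4% of tRNA genes and 63.6% of snRNA genes had such a summit. A thresholded summit lay within 500 bp of 57 snoRNA genes (16.5%, 12.7 to 20.8), against 0.315% of nuclear bases. The 57 include genes whose summit was also near a tRNA gene and genes that share a summit. In the list of replicate 2, which is shorter, 46.5% of snoRNA genes had a summit within 500 bp, and in that of replicate 3, 65.3%. Of the 225 genes nearest to a member, 175 had 1 member, 44 had 2 and 6 had 3, so members of 1 gene are not independent.

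Chromosome X had no thresholded member. It carried 33 of the 346 snoRNA genes and 20 members, with 0 thresholded (upper limit of the exact interval 16.8%), while the autosomes had from 11.9% (III) to 22.9% (V) of their members thresholded. Counted by gene, a thresholded summit did lie within 500 bp of 1 of the 33 X genes (3.03%, 0.0767 to 15.8), but no member held that summit. The strongest X member, at C53B7.8, had a signal of 15.1, with 4.63 in replicate 2 and 9.50 in replicate 3, and had the B box-like match. Of the 33 X genes 4 (12.1%, 3.40 to 28.2) had a motif, against 20.4 to 32.7% on the autosomes, and 4 of the 33 were intronic. The intervals for X overlapped those of the autosomes.

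Protein-coding promoters were near a minority of the members. The promoter window reached from 1000 bp before to 200 bp behind the 5′ end of a protein-coding gene, and the summits of 91 of 281 members (32.4%) fell in it, against 28.7% of all nuclear regions. Of these 91 members 13 (14.3%) were thresholded, and of the other 190 members 41 (21.6%). Their median signals were 8.28 and 8.32. By class, the summits of 35 of 127 intronic (27.6%), 48 of 113 intergenic (42.5%) and 8 of 41 exonic members (19.5%) fell in the window. Among thresholded members these were 4 of 28 intronic (14.3%), 8 of 21 intergenic (38.1%) and 1 of 5 exonic ones. The part of this difference in the comparison of the classes was not tested. Regions at tRNA genes had a median signal of 13.7 (n = 552) and 21.9% of them were thresholded (interval 18.5 to 25.6), which overlaps the snoRNA share. Their thresholded summits lay at a median of +28 bp from the gene's 5′ end (quartiles −1 and 67). Regions at snRNA genes that were neither members nor near a tRNA gene had a median signal of 8.55 (n = 99). Of these, 12.1% were thresholded (interval 6.42 to 20.2), which overlaps the snoRNA share as well.

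Genes of snoRNA proteins, SNAPc and RNA polymerases were looked up by a fixed list. Of 18 listed protein-coding genes found in the annotation, 14 (77.8%, interval 52.4 to 93.6) had a pooled relaxed summit in that promoter window, against 41.5% of all protein-coding genes, and none had a thresholded one, against 214 of 19971. The list was chosen with earlier results of these data known. All 8 genes of core snoRNA proteins and their partners had a region. These were fib-1 (fibrillarin, the methylase, signal 12.2), nol-56 (11.2), nol-58 (14.5) and snu-13 (12.2) of box C/D particles, and dkc-1 (the pseudouridine synthase dyskerin, 15.8), Y48A6B.3 (15.2), nola-3 (8.98) and garr-1 (10.1) of box H/ACA particles. Their ranks ran from 814 to 3404 of 30000. The nol-56 region is itself a member, at the intronic snoRNA gene K07C5.11, with its summit at −412 bp from that gene. Of the genes of the SNAPc complex, snpc-4 (8.17), snpc-1.1 (5.54) and snpc-1.2 (3.48) had a region, and snpc-1.3 and snpc-3.1 had none in the list. The TATA-binding protein gene tbp-1 and the polymerase III factor gene brf-1 had none either. The polymerase genes rpc-1 and rpb-2 had signals of 3.19 and 8.01, and the exonuclease gene xrn-2 had 8.93.

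The replicates shared the strong members and differed on the weak ones. A region of the replicate's own list overlapped 152 of the 281 members in replicate 2 and 229 in replicate 3, and 132 members were found in both. All 54 thresholded members were found in both, and that list is made from both. Their median percentile was 98.9 in replicate 2 and 99.6 in replicate 3. Over the 132 members in both lists the log2 signals of the replicates had a Pearson correlation of 0.595 (Spearman 0.603), and over the 54 thresholded ones 0.0974 (Spearman 0.155). These points share the same 2 libraries, and their range is cut by the threshold. The order of the strongest members was thus poorly shared between the replicates. Of the 78 members in both lists that were not thresholded, the summits lay a median of 102 bp apart, against 40 bp for thresholded ones.

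**Figure D5:**
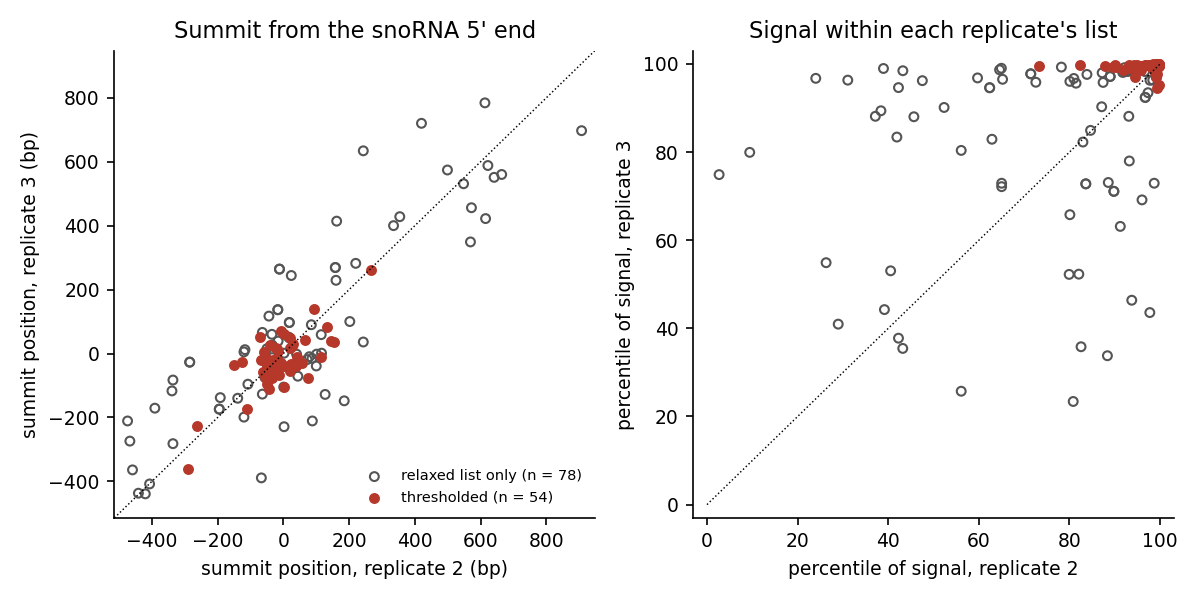
Members found in both replicates' lists, with the summit position from the snoRNA gene's 5′ end (left, bp) and the percentile of signal in each replicate's own list (right), replicate 2 on the x axes and replicate 3 on the y axes. Filled points are the 54 thresholded members, and open points are the 78 others; the dotted line marks equal values. The summits of 33 of the 54 filled points lay within 50 bp of each other, and their percentiles had medians of 98.9 and 99.6.

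The sequence under the members was mostly single-copy. For 266 of 281 members every 32-mer within 50 bp of the summit occurred once in the genome, and for 11 fewer than 90% did. Among thresholded members 53 of 54 were wholly unique, with a minimum of 98.6%. Of the snoRNA genes themselves, 40 of 346 had fewer than 90% unique 32-mers, and 5 of these had a thresholded member. How the authors placed reads that match several places is not given in the sources used here.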

How the data were processed

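ChIP-seq of GFP-tagged and FLAG-tagged LSY-27 was deposited as lists of regions for 2 replicates of 1 group. Per the labels and the deposited text, the authors called a relaxed list for each replicate and for the pooled replicates, and made a thresholded list by the irreproducible discovery rate method. The signal of a region is the authors' deposited score. Its scale, the peak caller, the aligner and the read depth are not given in the sources used here. Control reads were not analysed here. Only the ce11 lists were used.

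Summits were joined to the RefSeq annotation of WBcel235. A member was thresholded when it held the summit of a thresholded region, and it was matched to a replicate's list by an overlap of at least 1 bp. Shares carry exact Clopper-Pearson 95% intervals. With 1 group there was no comparison of samples and no test. Named members were the 10 with the highest signal of the intronic and of the intergenic class, up to 5 exonic ones and 2 on each side of the distance limit. Sequences are shown for the 3 strongest intronic and intergenic members not on chromosome I. The members, the lists and the motif letters were chosen with earlier results of these data known. The join and the motif search were tested on simulated data. Alternatives were other distances, subsets of members, single replicates and other motif letters. Python 3.11.15, numpy 2.4.6, pandas 2.3.3, scipy 1.17.1 and matplotlib 3.10.9 were used.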

Additional observations from a re-analysis of the deposited data

How the results depend on the processing

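The higher median percentile of intronic over intergenic members, 2.99 points, did not hold. The difference was −0.563 with a distance of 250 bp, −0.108 among thresholded members, and −3.34 and −7.57 without replicate 2 and without replicate 3. The cause was not tested. The difference in summit position, 30 bp, kept its sign under the alternatives listed here but not in the weaker parts of the list, as the report gives by rank. It was 11 bp at both 250 and 1000 bp, 55.5 bp without protein-coding 5′ ends, 39 bp with unique snoRNA genes and 20 bp among thresholded members.

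Medians moved with the members kept. With 250 bp the intronic and intergenic percentiles were 93.6 and 94.2 and the summits −4 and −15 bp, and 27.5% of all and 27.4% of intergenic members were thresholded. The shares of genes with a summit were then 53.2% (all), 54.5% (intronic) and 53.5% (intergenic). With 1000 bp the percentiles were 77.5 and 76.0, the summits −4 and −15 bp, the thresholded shares 12.7% (all) and 14.2% (intronic), and 86.2% of intronic genes had a summit. Without members at protein-coding 5′ ends the intronic percentile was 91.5 and the summits 19.5 and −36 bp. In the stronger part of the list by signal, split at the median, the percentiles were 96.2 and 92.0, the summits −4 and −34 bp, 26.2% of members were thresholded, and 54.9% of all and 52.7% of intronic genes had a summit. The intergenic summit was −30 bp with unique snoRNA genes.

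In the lists of single replicates the intronic percentile ran from 82.3 to 84.3, the intergenic one from 87.6 to 89.9, the intronic summit from 15 to 22 bp and the intergenic one from −12 to −11 bp. The shares of genes with a summit ran from 46.5 to 65.3% (all), 50.9 to 65.9% (intronic) and 45.7 to 64.6% (intergenic). No paired analysis was possible because there was a single group.

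These alternatives were chosen after seeing the data. With 1 member per gene the percentiles were 93.4 and 92.4 and the summits −10 and −38 bp. Among thresholded members they were 99.6 and 99.7, and −19 and −39 bp. With summits from 100 bp upstream to 50 bp downstream they were 98.6 and 98.0, and 44.6% (all), 46.0% (intronic) and 46.2% (intergenic) were thresholded. Without neighbours of tRNA pseudogenes the intergenic summit was −26 bp. With the shorter B box letters GTTCNA, 19.0% of genes with no member had a motif. Upstream windows of 100 and 250 bp and the letters GGTTCGA left the share of thresholded genes with a motif between 61.1 and 72.2%, and GTTCNA gave 77.8%. Unknown depth leaves the reliability of weak members unknown.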
